A study of Macaca fascicularis with 12 samples.

Results

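The genes described here mark striatal medium spiny neurons, the projection neurons that make up most of the caudate and putamen. The 9 genes listed by name were PPP1R1B, DRD1, DRD2, ADORA2A, GPR6, PDE10A, RGS9, PENK and TAC1, and all probe sets whose single gene symbol in the platform annotation was one of them were taken. This gave 12 of 52865 probe sets, for 6 of the 9 genes and of 14132 genes with a probe set of their own. DRD1, ADORA2A and TAC1 had no probe set under their own symbol in the annotation used here and were not analysed. The cell type was therefore followed through the other 6. Of these, DRD2, GPR6 and PENK are genes of indirect pathway neurons. DRD1 and TAC1, the listed genes of direct pathway neurons, are not among them.

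Medium spiny neurons receive cortical and thalamic glutamate input and midbrain dopamine input, and release GABA onto the pallidum and substantia nigra. Direct pathway neurons carry the dopamine D1 receptor and substance P, which TAC1 encodes, and indirect pathway neurons carry the D2 receptor, the adenosine receptor that ADORA2A encodes, and enkephalin. In both kinds, dopamine receptors set cAMP and the phosphorylation of DARPP-32, and most of these transcripts are far more abundant in caudate and putamen than in thalamus.

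The tissue came from 3 adult male cynomolgus macaques (Macaca fascicularis). In each animal the left hemisphere received the baculovirus BV-HSVtk, an insect virus used as a gene transfer vector, as 4 injections into the caudate and putamen of 10 µL with 1e8 particles each. The right hemisphere received a mock preparation at matching coordinates, namely Sf9 insect cell medium that held no virus and was purified alike. After 2 days, 2 samples of some 100 mg were cut from each hemisphere, and each was run on 1 array, for 6 BV arrays and 6 mock arrays. Every hemisphere was injected, so no tissue without injection was measured, and because virus was always on the left, treatment and hemisphere cannot be told apart. The labels place the tissue around the injection site and do not give the region of a piece. Replicates 1 and 2 are animal 1, 3 and 4 animal 2, and 5 and 6 animal 3, and the odd-numbered replicates are piece 1, the even-numbered ones piece 2. Pieces of a hemisphere share an animal and are not independent.

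The array files hold signal intensities, which were quantile normalized here and are given as log2(signal + 3.49), called log2 signal below. The deposited medians were 50.2 to 62.8 on the piece 1 arrays and 25.4 to 32.7 on the piece 2 arrays, so a gap between pieces of a hemisphere is also a gap between these array sets. The ratio of the 3' to the 5' actin control probe sets was 1.10 to 1.4 on 11 arrays and 2.40 on mock replicate 6. ISG15, an interferon-induced ubiquitin-like protein, had 10.69 to 12.21 on the BV arrays and 7.54 to 9.09 on the mock arrays. It was chosen with earlier results of these data known, so it is no independent check of the treatment labels.

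On their brightest probe sets, the medium spiny neuron genes varied more over the single pieces than nearly all other tested probe sets. The SD over the 12 arrays was 1.32 for PPP1R1B, 1.49 for DRD2, 1.75 for PENK, 2.07 for PDE10A, 2.18 for RGS9 and 2.37 for GPR6 in log2 units. These values stand at the 98.7th percentile of all tested probe sets for PPP1R1B and at the 99.9th for GPR6 and RGS9. Of the 6 genes, 4 had an SD above 1.5, against 0.752% of the 31660 tested probe sets. Such spread was not particular to these genes. The thalamic markers SHOX2 and NTNG1 stood at the 99.95th and 99.87th percentile, though PLEKHG1 stood at the 38.9th. ANO3, on the list of other medium spiny neuron genes, stood at the 99.98th and OPRM1 at the 19.4th. A further probe set of PDE10A stood at the 86.1st percentile and that of PENK at the 32.9th.

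**Figure D1:**
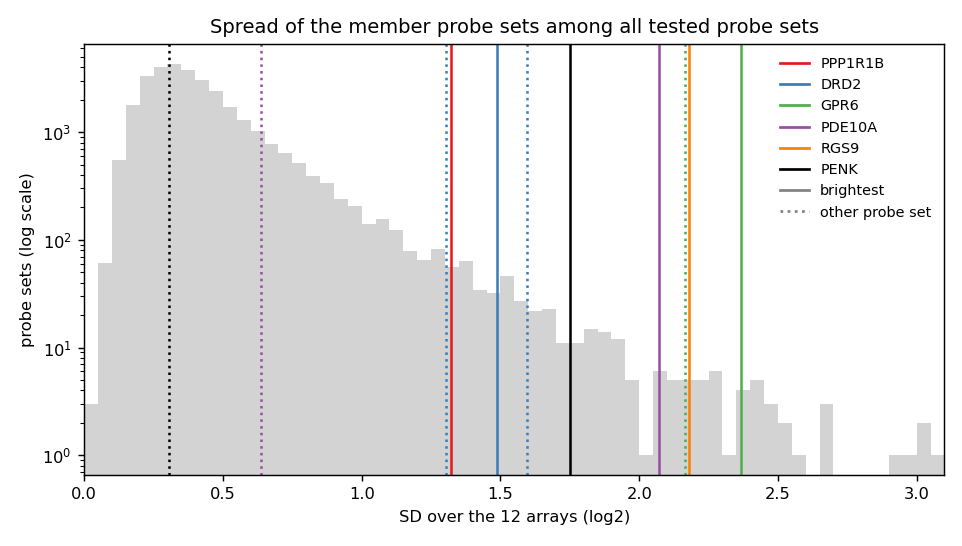
Histogram of the SD over the 12 arrays (log2 units) for the 31660 tested probe sets, with the number of probe sets on a log scale. Solid lines mark the brightest probe set of each gene, which lie between 1.32 (PPP1R1B) and 2.37 (GPR6), and dotted lines the other tested probe sets of the same genes, the narrowest being that of PENK at 0.31.

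Both receptor genes spread widely within each treatment. DRD2, the inhibitory dopamine receptor of indirect pathway neurons, had a lowest, median and highest log2 signal of 5.53, 7.12 and 8.80 on the BV arrays, against 6.53, 8.86 and 10.42 on the mock arrays. That is a 9.65-fold range within BV and a 14.8-fold range within mock. Fold ranges here are of normalized signal + 3.49, so they are narrowed where the lowest signal is close to 3.49. GPR6, a constitutively active orphan receptor that raises cAMP and is concentrated in indirect pathway neurons in rodents, had 6.0, 3.66, 6.13, 9.09, 5.96 and 9.22 in BV replicates 1 to 6, against 4.6, 9.45, 4.36, 8.88, 9.44 and 10.30 in mock replicates 1 to 6. Its levels lay in 2 ranges, with 8.88 and above on 6 arrays and 6.13 and below on the other 6, and both treatments had arrays in each. The fold range of GPR6 was 47.3 within BV and 61.3 within mock.

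The cAMP and G protein signalling genes gave the same picture. PPP1R1B encodes DARPP-32, which becomes an inhibitor of protein phosphatase 1 when protein kinase A phosphorylates it. Its lowest, median and highest log2 signal were 7.22, 8.26 and 10.25 on the BV arrays, against 7.33, 9.84 and 10.46 on the mock arrays. PDE10A, a phosphodiesterase that breaks down cAMP and cGMP, had 6.01, 6.97 and 10.08 on the BV arrays, against 5.48, 9.75 and 10.91 on the mock arrays. RGS9, which speeds the switching off of inhibitory G proteins, had 3.71, 5.78 and 8.36 on the BV arrays, against 3.97, 8.41 and 10.14 on the mock arrays. The fold range of RGS9 was 25 within BV and 72.0 within mock, and the extremes in deposited signal were 5.42 in BV replicate 2 and 867 in mock replicate 6. The fold range was 8.18 within BV and 8.78 within mock for PPP1R1B, and 16.9 within BV and 43.1 within mock for PDE10A. The groups overlapped for each of these genes.

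Of the neuropeptide genes, PENK, the precursor of the enkephalins, had on its brighter probe set 6.27, 8.64 and 10.55 on the BV arrays, against 6.73, 10.25 and 11.16 on the mock arrays. Its 6 BV values were 8.13, 6.27, 8.90, 10.14, 8.39 and 10.55 in replicates 1 to 6, against mock values of 6.73, 10.93, 7.19, 9.56, 11.09 and 11.16. The fold range was 19.4 within BV and 21.5 within mock, and the groups overlapped.

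**Figure D2:**
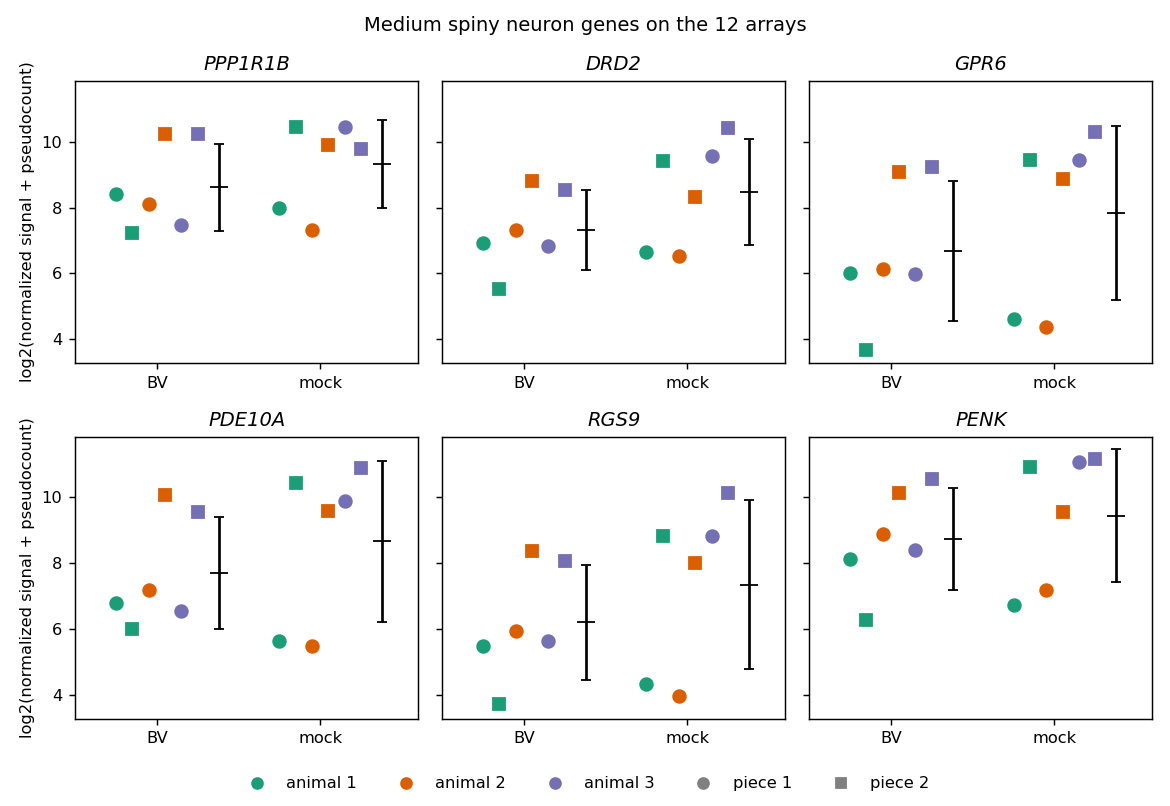
Log2 signal of the brightest probe set of each gene (vertical axis, log2(normalized signal + 3.49)) on each of the 12 arrays, BV left and mock right, with colour for animal and shape for piece; bars give the mean and SD of 6 arrays. In every panel the piece 2 array of BV animal 1 is the lowest BV array, and arrays of both treatments lie at high and at low levels.

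The genes moved together from piece to piece. All 6 lay below their own 12-array median on the same 6 arrays, which were BV replicates 1, 2, 3 and 5 and mock replicates 1 and 3, and above it on BV replicates 4 and 6 and mock replicates 2, 4, 5 and 6. Pairwise Pearson correlations between the genes over the 12 arrays were 0.899 to 0.992, with a median of 0.958 over the 15 gene pairs. Within the 6 piece 1 arrays the median was 0.963, and within the 6 piece 2 arrays it was 0.973. These are descriptions, since the arrays come from 3 animals and share them. GPR6 followed the mean of the other 5 genes most closely (r = 0.994), and PPP1R1B least closely (r = 0.937).

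The mean log2 signal of the 6 genes, taken over the same probe sets on each array, was 6.95, 5.40, 7.26, 9.45, 6.80 and 9.36 in BV replicates 1 to 6, against 5.99, 9.91, 5.81, 9.05, 9.88 and 10.45 in mock replicates 1 to 6. In order from the lowest array, BV replicate 2, mock replicates 3 and 1 and BV replicates 5, 1 and 3 made up the lower 6, and mock replicate 4, BV replicates 6 and 4 and mock replicates 5, 2 and 6 made up the upper 6. Each piece was measured once, so neighbours in this order have no error of their own and were not compared. BV replicate 2 was the lowest BV array for all 6 genes. Mock replicate 6, the array with the high actin ratio, was the highest mock array for 5 genes and mock replicate 5 was for PPP1R1B. The part of the actin ratio in these levels was not tested, and without mock replicate 6 all 6 BV minus mock differences were still below 0, with a median of -0.87.

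For all 6 genes the median absolute gap between the pieces of a hemisphere was larger than the median absolute difference between same-numbered pieces of an animal's hemispheres. Pieces were paired by number only, since their region is not given. The piece 2 minus piece 1 gap of RGS9 was -1.75, 2.42 and 2.44 in the BV hemispheres of animals 1, 2 and 3, against 4.48, 4.05 and 1.33 in their mock hemispheres. For GPR6 it was -2.35, 2.96 and 3.26 in the BV hemispheres, against 4.85, 4.52 and 0.86 in the mock hemispheres. For PPP1R1B it was -1.20, 2.15 and 2.76 in the BV hemispheres, against 2.45, 2.57 and -0.67 in the mock hemispheres. Piece 2 was the higher in 5 of 6 hemispheres for DRD2, GPR6, PDE10A, RGS9 and PENK and in 4 of 6 for PPP1R1B. The exception for every gene was the BV hemisphere of animal 1, and PPP1R1B was also lower in piece 2 of the mock hemisphere of animal 3. The median absolute piece gap was 3.11 for GPR6, against a median absolute BV minus mock difference over the 6 replicate pairs of 1.58. For DRD2 the values were 1.6 for the piece gap and 1.34 for the pair difference, and for PPP1R1B 2.30 for the piece gap and 0.61 for the pair difference.

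Against this spread, no BV minus mock difference of the 6 genes passed the test, in which the pieces of a hemisphere were averaged and hemispheres compared within animals with limma. The estimated BV minus mock difference was below 0 for all 6, with a median of -1.06 in log2 units, against -0.02 over all tested probe sets. None was called at an adjusted p under 0.05, where 9 of 31660 probe sets were called (0.0284%), all 9 of them higher in BV (0% lower). None had an unadjusted limma p under 0.05 either, as 8.8% of all tested probe sets did (3.65% with BV lower), and the BV and mock arrays overlapped for all 6, as they did for all but 0.373% of tested probe sets. In bulk tissue, fewer medium spiny neurons in a piece and less RNA per neuron cannot be told apart.

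DRD2 averaged 7.32 ± 1.21 on the BV arrays and 8.48 ± 1.61 on the mock arrays (SD, n = 6 each), a difference of -1.17 ± 0.55 (SE of the limma fit, n = 3 animals, adjusted p = 0.569, 95% confidence interval -2.51 to 0.17). GPR6 averaged 6.68 ± 2.13 on the BV arrays and 7.84 ± 2.64 on the mock arrays, a difference of -1.16 ± 0.64 (limma adjusted p = 0.573, interval -2.73 to 0.41). PPP1R1B averaged 8.61 ± 1.33 on the BV arrays and 9.32 ± 1.33 on the mock arrays, a difference of -0.71 ± 0.39 (limma adjusted p = 0.573, interval -1.66 to 0.25). For these 3 genes the SD over single pieces was larger than the difference in both groups. That SD is not the error of the difference, which was estimated within animals and has the SE given. PDE10A averaged 7.69 ± 1.70 on the BV arrays and 8.66 ± 2.45 on the mock arrays (difference -0.97 ± 0.63, limma adjusted p = 0.591, interval -2.51 to 0.57). RGS9 averaged 6.19 ± 1.75 on the BV arrays and 7.35 ± 2.57 on the mock arrays (difference -1.15 ± 0.69, limma adjusted p = 0.583, interval -2.86 to 0.55). PENK averaged 8.73 ± 1.54 on the BV arrays and 9.44 ± 2.02 on the mock arrays (difference -0.71 ± 0.56, limma adjusted p = 0.627, interval -2.08 to 0.65). The 6 intervals include 0 and also reductions of well over 1 log2 unit, so neither no change nor a loss of that size could be set aside at this number of animals.

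The 6 replicate pairs did not share a direction. RGS9 was 1.14, 1.98 and 0.34 higher in BV in replicate pairs 1, 3 and 4, and differed by -5.10, -3.19 and -2.07 in pairs 2, 5 and 6. DRD2, GPR6, PDE10A and PENK were likewise higher in BV in those 3 pairs and lower in the other 3, and PPP1R1B was higher in 4 pairs and lower in 2. By animal, the RGS9 difference was -1.98, 1.16 and -2.63 in animals 1, 2 and 3, and in each of the 6 genes animal 2 was the one with a positive difference. With piece 1 arrays alone the median difference of the 6 genes was -0.14, and with piece 2 arrays alone -1.76.

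**Figure D3:**
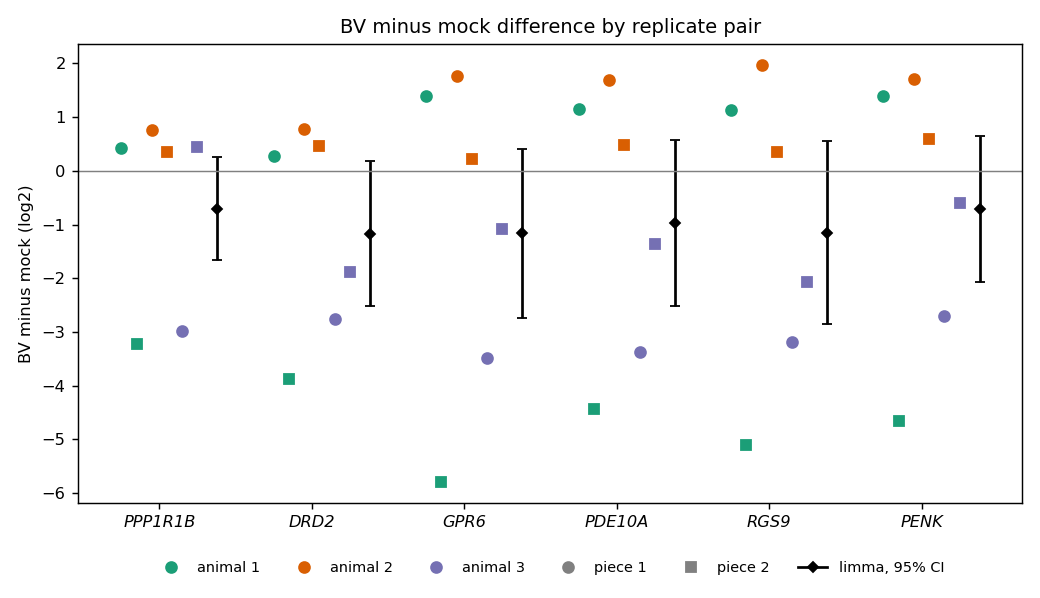
BV minus mock difference (log2) of each gene in each of the 6 replicate pairs, colour for animal and shape for piece; diamonds give the limma estimate with its 95% confidence interval. Points of animal 2 lie above 0 in every gene, and every interval crosses 0.

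A limma F test over the single arrays did not find that the BV minus mock difference depended on the animal for any of the 6 genes (adjusted p = 1.00 in each, unadjusted p from 0.125 to 0.443, background 0% called and 2.32% at unadjusted p under 0.05). The same held for a difference that depended on the piece, where estimates ran from -0.21 for PPP1R1B to -2.25 for RGS9 with adjusted p = 1.00 and unadjusted p from 0.174 to 0.863 (background 0% called and 1.8% at unadjusted p under 0.05). Animal 2 decided the call of the main comparison. Without it, limma fitted on 2 animals called all 6 genes lower in BV, with differences of -1.34 for PPP1R1B to -2.31 for RGS9 and adjusted p from 8.86e-05 to 0.00189. In that fit 1845 of the 31660 tested probe sets were called (5.83%), 684 of them lower in BV (2.16%). Animal 2 was the only animal with a positive difference, so the lower direction without it was fixed beforehand. With 2 animals few residual degrees of freedom remain, and these p-values lean on the variance that limma shares across probe sets. They are given as a description only.

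Other probe sets of these genes, where more than 1 was on the array, followed the brightest to differing degrees. The 2 further probe sets of DRD2 followed the brightest with r = 0.951 and 0.922 over the 12 arrays and differed by -0.81 ± 0.54 and -0.97 ± 0.43. The further GPR6 probe set differed by -0.58 ± 0.62 (r = 0.966). Of the further PDE10A probe sets, 1 differed by -0.37 ± 0.29 (r = 0.921) over a narrower range, and the other (r = 0.612) lay below the intensity filter and was not tested. In that dim probe set piece 2 was the higher in 4 of 6 hemispheres, against 5 of 6 for the brightest. Of the 12 member probe sets 11 were tested, none was called, and 1 had an unadjusted limma p under 0.05. Of all tested probe sets 8.8% had such a p, so 1 among 11 is near the background.

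The probe set with that p was the second of PENK (MmugDNA.41979.1.S1_at). Its lowest, median and highest log2 signal were 8.42, 8.64 and 8.80 on the BV arrays, against 8.88, 9.09 and 9.41 on the mock arrays. The BV and mock arrays did not overlap, as for 0.136% of tested probe sets with BV lower, and BV was lower in 6 of 6 pairs, with pair differences of -0.99 to -0.20. The difference was -0.49 ± 0.15 (limma unadjusted p = 0.0162, adjusted p = 0.564, interval -0.85 to -0.13), so it did not pass over all tested probe sets. It differed from the brighter PENK probe set in its spread, with a range of 0.99 over the 12 arrays against 4.89, and did not follow it (r = 0.0188) or the other 5 genes (r = 0.138). Which transcript each of them reads was not tested, and the PENK result above rests on the brighter one.

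**Figure D4:**
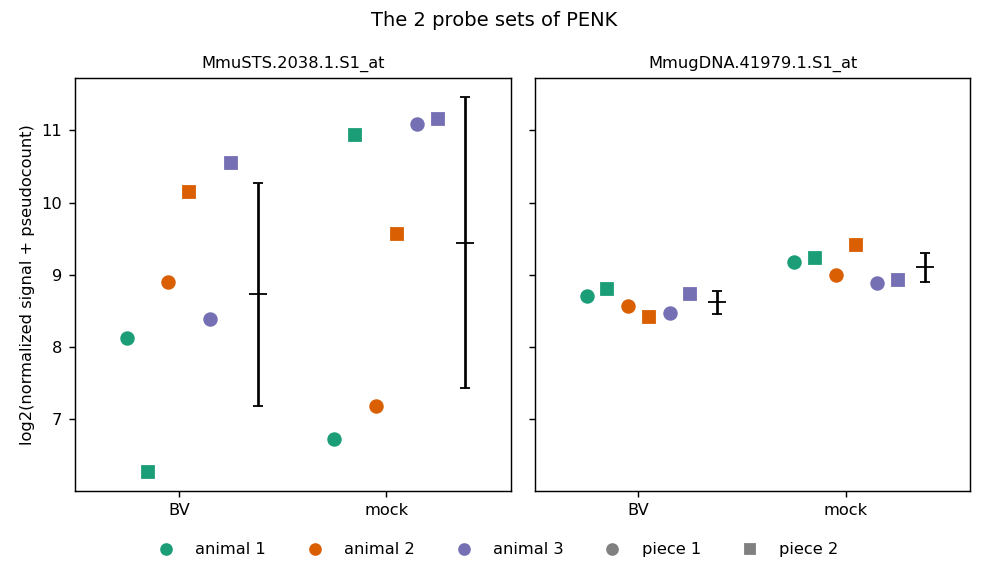
Log2 signal of the 2 PENK probe sets on the 12 arrays, BV left and mock right in each panel, colour for animal and shape for piece, with mean and SD of 6 arrays. The brighter set (left) ranges from 6.27 to 11.16 with overlapping groups, and the second (right) from 8.42 to 9.41 with every BV array below every mock array.

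Most, but not all, listed genes of the same neurons followed these 6. Over 11137 genes, the median correlation with the member mean over the 12 arrays was -0.02, with 142 genes above 0.9 and 17 below -0.9. The 10 most alike were NGEF (r = 0.996), LOC574167, ZNF277, ANO3, IRF7, CKM, RGS14, TPBG, ESYT2 and ARPP19 (r = 0.986). ANO3 and RGS14 are also on the list of other medium spiny neuron genes, of which 9 of 11 tested members had a difference below 0 (median -0.43) and none passed. Of those 11, 9 had r above 0.5 with the 6 genes (median r 0.868, list mean r = 0.979), and SYNPR (r = 0.245) and ARPP21 (r = 0.158) did not. Among its members, ANO3, of the anoctamin family, differed by -1.16 ± 0.84, and ADCY5, the main adenylyl cyclase of the striatum, by -0.87 ± 0.39 (limma adjusted p = 0.610 and 0.568). Of 10 tested striatal transcription factors, 7 had r above 0.5 (median r 0.711, list mean r = 0.931), and FOXP2 (r = 0.490), IKZF1 (r = 0.368) and ZNF521 (r = -0.012) did not. Their BV minus mock difference was below 0 for 8 of 10 (median -0.27), with MEIS2 at -0.58 ± 0.26 and RARB at -0.49 ± 0.34, and none passed.

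The list of cAMP and DARPP-32 phosphatase signalling genes, which also holds CREB1 and partners of RGS proteins, was split. Of 12 tested members, 4 had r above 0.5 with the 6 genes, among them PPP1CB (r = 0.946) and PRKAR2B (r = 0.920), and 3 had r below -0.5, among them PRKAR1B (r = -0.851). The list mean had r = 0.125, and 9 of the 12 had a BV minus mock difference below 0 (median -0.11, none passing). PRKAR1B, a regulatory subunit of protein kinase A, differed by 0.54 ± 0.19 and PPP1CB, a catalytic subunit of protein phosphatase 1, by -0.45 ± 0.24. Genes of GABA synthesis and release, which all these projection neurons use but which other neurons use too, had r = 0.309 with 3 tested members and a median of -0.03, among them ABAT at -0.18 ± 0.12 and GAD2 at 0.05 ± 0.18. Striatal interneuron genes had 3 tested members (list mean r = 0.343, median -0.42), of which NPY (r = 0.944) differed by -0.99 ± 0.49 and PVALB (r = -0.785) by 0.73 ± 0.29, and dopamine terminal genes 2 (r = -0.371), with SLC18A2 at 0.15 and SLC6A3 at -0.13. Within the piece 1 and piece 2 arrays the GABA list had r = -0.704 and 0.405, and the interneuron list r = -0.510 and 0.785.

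Markers of thalamic neurons ran opposite to the medium spiny neuron genes in 8 of 9 cases, with r below -0.5, the exception being PRKCD (r = 0.822). The mean of 9 tested thalamic markers correlated with the member mean at r = -0.90 over the 12 arrays (Spearman rho -0.818), and r = -0.847 and -0.878 within the piece 1 and piece 2 arrays. It was 9.38, 9.25, 9.21, 7.88, 8.06 and 6.87 in BV replicates 1 to 6, against 9.33, 7.43, 9.24, 6.89, 6.86 and 6.30 in mock replicates 1 to 6. The thalamic mean was higher in BV in 5 of 6 pairs, and in 4 of 6 pairs its difference and that of the 6 genes had opposite signs. The pieces of a hemisphere differed in opposite directions for the 2 sets in 5 of 6 hemispheres. Of the 9 thalamic markers, 8 were above 0 (median difference 0.86, 6 at unadjusted limma p under 0.05, none passing), among them the transcription factor SHOX2 at 1.73 ± 0.16 (adjusted p = 0.101) and NTNG1 at 1.44 ± 0.18 (adjusted p = 0.194). With the mean of the thalamic markers as a covariate, the difference of 5 of the 6 genes turned positive (0.33 to 0.72) and that of DRD2 was -0.26, with none called. How far the proportion of striatum and thalamus in a piece accounts for either set was not tested.

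**Figure D5:**
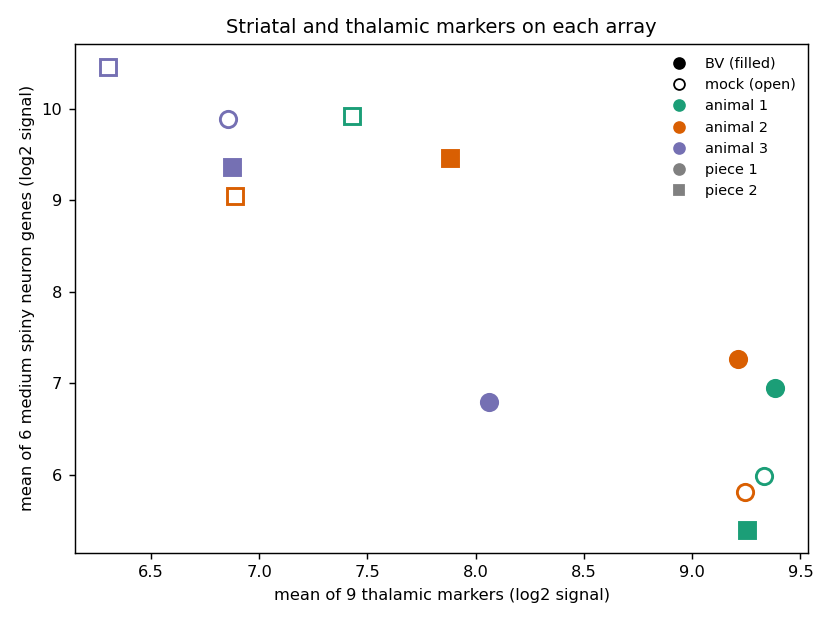
Mean log2 signal of the 6 medium spiny neuron genes (vertical axis) against that of 9 thalamic markers (horizontal axis) on each array, filled for BV and open for mock, colour for animal and shape for piece. Arrays with high thalamic markers have low medium spiny neuron genes in both treatments.

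Other cell type lists moved with the 6 genes to differing degrees. Of 5 tested cortical markers, NRGN (r = 0.968) and LAMP5 (r = 0.980) followed them, whereas MEF2C had r = 0.415, TBR1 r = -0.063 and CUX2 r = -0.745. The cortical list mean had r = 0.966 with the 6 genes, close to the 0.979 of the other medium spiny neuron genes. Within the piece 1 and piece 2 arrays the cortical list mean had r = 0.943 and 0.966. NRGN differed by -0.72 ± 0.51 and LAMP5 by -0.50 ± 0.43, and the list's median difference was -0.04. Of 5 pallidal and hypothalamic markers, 4 had r above 0.5 (median r 0.704, list mean r = 0.868) and POMC had r = -0.243. NKX2-1 differed by -0.72 ± 0.25 and POMC by 0.60 ± 0.22 (list median -0.53). Of 9 pan-neuronal genes, 7 had r below -0.5 (median r -0.718, list mean r = -0.84). Of these 9, 8 had a difference above 0 (median 0.26), with VSNL1 at 0.91 ± 0.24 and NEFH at 0.72 ± 0.26. Of 4 oligodendrocyte genes 2 were above 0 (r = -0.168), with UGT8 at -0.35 and CNP at 0.13, and of 3 choroid plexus and ependyma genes 2 (r = -0.294), with FOXJ1 at 0.42 and AQP1 at 0.16. Of 7 astrocyte genes 5 were below 0 (r = 0.383, median -0.08), with SLC1A2, a glutamate transporter, at -1.0 ± 0.20 and S100B at -0.28. Of 10 microglia genes 7 were above 0 (r = 0.281, median 0.23), with CD68 at 1.41 ± 0.47 and C1QB at 0.95 ± 0.17. No member of these lists passed. Within the piece 1 and piece 2 arrays the astrocyte list had r = -0.255 and 0.527, and the microglia list r = 0.401 and -0.324.

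The interferon-stimulated genes were mostly higher in BV. Of 16 tested, 15 had a difference above 0, 4 were called higher and the median difference was 2.01. ISG15 rose by 3.56 ± 0.13 (limma adjusted p = 0.00539), the antiviral GTPase MX1 by 3.04 ± 0.19 (adjusted p = 0.0256), IFI27 by 2.55 ± 0.16 and IFIT3 by 2.13 ± 0.14. The list mean correlated with the 6 genes at r = -0.120 over the 12 arrays (median r -0.216 over the 16), and 1 member, IRF7, had r above 0.5. Within the piece 1 and piece 2 arrays the list mean had r = 0.117 and -0.552.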

How the data were processed

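Rhesus macaque arrays (12) measured RNA of 6 BV and 6 mock tissue pieces. The authors deposited intensities on a linear scale, 1 per probe set, with GCOS 1.4.0.036 named as software per the submitters' processing notes; how probes were summarised and scaled is not given in the sources used here. Per the labels, 5 µg of RNA per piece was labelled with kits of 2 makers. No detection calls were used.

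Because array medians differed, intensities were quantile normalized here, taken as log2(signal + 3.49) with the 10th percentile as pseudocount, and filtered at a mean of 4.95 (the 40th percentile). The 99 control probe sets were left out, and 31660 of 52766 others were tested. Symbols came from the platform annotation: 24969 probe sets had 1 symbol, 361 had several and 27535 had none. A gene is represented by its brightest probe set. Pieces were averaged per hemisphere and fitted in limma 3.58.1 (R 4.3.3) with animal as block, 2 residual degrees of freedom, Benjamini-Hochberg adjustment over all tested probe sets, two-sided at 0.05. The pairing comes from the animals, and deviations of an animal's hemispheres correlated at r = 0.622, 0.156 and 0.361. Interaction tests used the 12 single arrays with 6 residual degrees of freedom. The block fit alone was tried on simulated arrays with known changes. Their noise was independent between arrays, with no animal or piece effects, so the simulation does not cover those or the other steps. The members, lists and named genes (all members, the 10 genes most and least alike, up to 3 list members that passed or else the 2 of largest difference, ISG15 and MX1; correlations by gene and IFIT3 were added after values were seen) were chosen with earlier results of these data known. Alternatives covered the pseudocount, normalization, filter, block, pieces, a thalamic covariate, probe set rule, and each animal or array left out. The number of animals limits precision.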

Additional observations from a re-analysis of the deposited data

Results flagged for a closer look

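For 5 of the 6 genes, animal 2 and animal 3 moved in opposite directions in all their pieces: both replicate pairs of animal 2 were higher in BV and both pairs of animal 3 lower. The animal 2 minus animal 3 difference of the BV minus mock difference was 2.96 for DRD2, 3.27 for GPR6, 3.46 for PDE10A, 3.79 for RGS9 and 2.80 for PENK, in log2 units. The difference between this pair of animals was not tested on its own, and the F test over all 3 animals took the pieces of a hemisphere as replicates. The limma F test over all 3 animals did not pass for any of them (adjusted p = 1.00). By Dixon's criterion at the 95% level, 0 of the 6 genes had a single array far from the other 5 of its group, where 4.54% of tested probe sets had one in BV and 6.21% in mock, so a count of 0 among 6 is near the background.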

How the results depend on the processing

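Of 29 alternatives tried, 28 left 0 of 6 genes called, and without animal 2, the only animal with positive differences, all 6 genes were called. With the thalamic markers as covariate, GPR6 turned to 0.60, PDE10A to 0.72, PENK to 0.43, PPP1R1B to 0.33 and RGS9 to 0.43 (median of the 6 genes 0.43); with piece 1 arrays alone PENK turned to 0.14. The cause was not tested. With the replicate block on single arrays 0 of 6 were called (adjusted p of 0.381 and above, where 55 of 31660 probe sets were called), and without the block 0 were called (adjusted p of 0.817 and above). Leaving out 1 array gave a median of -1.70 to -0.33, with none called at adjusted p under 0.05. At an unadjusted limma p under 0.05 were 6 genes without mock replicate 3, where 1786 of 31660 tested probe sets were. There were 5 without BV replicate 4 (2485 of 31660), 1 without BV replicate 1 (3510 of 31660) and 1 without mock replicate 1 (2146 of 31660). No gene was under it with any other single array left out. Without animal 1 and animal 3 the medians were -0.64 and -0.42. Other pseudocounts, normalizations and filters gave medians of -1.12 to -0.99. The count of all called probe sets ranged from 0 (piece 2 arrays alone, without mock replicate 5) to 1845 (without animal 2), against 9. The SD of the member mean over pieces was 1.31 to 1.76 for BV and 1.76 to 2.30 for mock, and both interaction tests called 0 in the 5 alternatives each. The number of animals and the unknown region of each piece limit these results.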

Other observations

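The genes running most opposite to the medium spiny neuron genes over the 12 arrays were LOC705198 (r = -0.955), CHAC1, ARHGEF11, VOPP1, ORAI3, RASSF5, CCDC136, ARIH1, VAV3 and NHLH2 (r = -0.911). NHLH2, a neuronal transcription factor, differed by 1.13 ± 0.23 (BV minus mock, limma adjusted p = 0.413).

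IRF7, a transcription factor of the interferon response, is on the interferon-stimulated list and also among the genes most alike the 6. It was singled out after its values were seen. Its brighter probe set (MmuSTS.3464.1.S1_at) followed the medium spiny neuron genes with r = 0.991, had a lowest, median and highest log2 signal of 6.0, 7.24 and 9.88 on the BV arrays, against 5.81, 9.55 and 10.92 on the mock arrays, and was higher in BV in 3 of 6 pairs (-0.89 ± 0.64, limma adjusted p = 0.608). The other IRF7 probe set (MmugDNA.29625.1.S1_at) had 6.50, 7.64 and 9.11 on the BV arrays, against 4.59, 5.62 and 6.60 on the mock arrays, and was higher in BV in 6 of 6 pairs, by 2.07 ± 0.31 (limma adjusted p = 0.273), with r = -0.055 with the 6 genes. The transcripts read by each of them were not checked.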
